A study of Homo sapiens with 10 samples.

Results

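HepG2 cells make deoxynucleotides, the building blocks of DNA, with a small set of enzymes, and the transcripts of 9 of these were followed here in cells under endoplasmic reticulum (ER) stress. The 9 genes are RRM1, RRM2, TYMS, TK1, DUT, DTYMK, DCK, DCTPP1 and SAMHD1. They were chosen by name from the 32738 genes of the count table, and each name matched 1 row. HepG2 is a human hepatoma line. Control cells were mock treated with regular growth medium, and treated cells received the same medium with 2 µg/ml tunicamycin, an inhibitor of N-linked glycosylation. Both were kept for 17 h, with no solvent-only control described, and 5 libraries were made per condition from 5 experiments on separate days. All 10 libraries come from this line, and no genetic change is described for either condition.

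Deoxynucleotides arise by 2 routes. In the de novo route, ribonucleotide reductase, built from the large subunit RRM1 and a small subunit (RRM2 or RRM2B), removes an oxygen from the ribose of nucleoside diphosphates. DUT then clears dUTP and thereby supplies dUMP, which TYMS methylates to dTMP. In the salvage route, TK1 phosphorylates thymidine and DCK phosphorylates deoxycytidine, while TK2 and DGUOK act in mitochondria. DTYMK carries dTMP from both routes to dTDP. DCTPP1 and SAMHD1 take finished triphosphates apart, the former with a preference for dCTP and its modified forms and the latter for all of them. The supply is tied to S phase in dividing cells, and RRM2, TK1 and TYMS are textbook targets of E2F transcription factors.

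Once the changes of the 9 genes were known, their promoter windows were read from RefSeq (GRCh38.p14), from 250 bases before to 50 bases after each annotated start. All 9 genes were matched, with 14 windows. Words of 7 letters of the E2F type (the word TTCCCGC, its variant TTCGCGC, the word TTGCCGC and its variant TTGGCGC) and the word CCAAT, bound by NF-Y, were searched on both strands. The stretches below, each of 90 bases before the start site and given 5′ to 3′ on the strand of the gene, lie in the window of each gene with the most such words and were placed to hold the most bases of them, which are in capitals. The first 5 belong to genes that fell with tunicamycin, and the last to DCK, which was not called.
RRM1, chr11:4094449-4094538 (plus strand): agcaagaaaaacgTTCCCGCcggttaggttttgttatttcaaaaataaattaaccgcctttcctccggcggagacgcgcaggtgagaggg
RRM2, chr2:10122602-10122691 (plus strand): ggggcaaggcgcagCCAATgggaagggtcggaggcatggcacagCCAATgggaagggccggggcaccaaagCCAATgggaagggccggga
TYMS, chr18:657547-657636 (plus strand): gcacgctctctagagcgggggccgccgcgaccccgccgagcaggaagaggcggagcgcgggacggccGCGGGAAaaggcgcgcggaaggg
TK1, chr17:78187055-78187144 (minus strand): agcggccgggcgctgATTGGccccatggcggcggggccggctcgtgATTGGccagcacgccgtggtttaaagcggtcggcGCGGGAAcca
DUT, chr15:48332098-48332187 (plus strand): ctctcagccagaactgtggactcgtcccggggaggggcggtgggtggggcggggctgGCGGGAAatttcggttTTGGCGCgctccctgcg
DCK, chr4:70993489-70993578 (plus strand): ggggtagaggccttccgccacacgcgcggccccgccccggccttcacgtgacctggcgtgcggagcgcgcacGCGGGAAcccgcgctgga

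The stretch of RRM2 holds CCAAT 3 times, and that of TK1 holds it 2 times, read on the other strand as ATTGG, beside 1 E2F word. DUT has 2 E2F words, and the stretch of DCK shows 1 of the 3 in its window. The other windows of DUT and the other window of TK1 hold no E2F word and no CCAAT. An E2F word occurred in at least 1 window of 6 of the 9 genes, against 15.3% of 27305 genes with a window. These were RRM1, RRM2 (in its other window), TYMS, TK1, DUT and DCK. All of these but DCK fell, while SAMHD1, which fell too, held no E2F word and is not printed above. CCAAT occurred in 5 of the 9 genes (RRM1, RRM2, TK1, DTYMK and SAMHD1), against 39.7% of all genes. The words TTTGAA and TTCGAA of the cell cycle homology region occurred in 3 of the 9, against 19.5%. Of the 6 genes that fell, 5 held an E2F word, 4 held CCAAT and 2 held a word of this region. The shares of all genes cover every gene with a window, not only those tested here. In none of the 14 windows did words of different kinds share bases. A matching word is a description of the letters and was not tested as a binding site, and a link between words and falls was not tested.

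Depth was 4242538 to 4888292 counts per library in control cells and 2234682 to 5029864 with tunicamycin, where replicate 5 was the shallowest. Treatment was visible in each library: HSPA5, the ER chaperone BiP, had 7735 to 9289 normalized counts in control and 60353 to 72113 in tunicamycin libraries. Normalized counts are counts divided by the library size scaled by the TMM method, multiplied by the mean of these sizes. The 6 hepatocyte markers were all present, and their sum was 58194 to 73472 normalized counts in control and 45821 to 51697 in tunicamycin cells. Markers of leukocytes, fibroblasts and endothelium did not pass the filter on low counts, with PTPRC, CD3E and COL1A2 at 0 in all libraries. Of the 3 endothelial markers PECAM1 was not found in the table, and the highest value in these lists, 18 counts, was that of CDH5 in tunicamycin replicate 4.

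Tunicamycin lowered 6 of the 9 genes, and none rose. RRM1, RRM2, TK1, DUT, TYMS and SAMHD1 passed the threshold of 0.05 on the adjusted p of the quasi-likelihood test of edgeR, while DTYMK, DCTPP1 and DCK did not. All 9 passed the filter on low counts. Among all 12733 genes tested, 16.6% were called lower and 17.6% higher. The share of higher genes among those called was 51.4% after TMM scaling but 40.8% with library size as the only scaling, where 6 of the 9 were again lower. In each of the 6 genes that fell, every tunicamycin library lay below every control library, a separation found for 11.9% of all genes tested in this direction and for 11.7% in the other. The median log2 fold change over the 9 genes was -0.41, against -0.00335 over all genes tested. Its values within the replicate pairs 1 to 5 were -0.54, -0.30, -0.52, -0.42 and -0.46. In whole cultures, fewer cells in S phase and less of these transcripts per cell cannot be told apart.

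**Figure D1:**
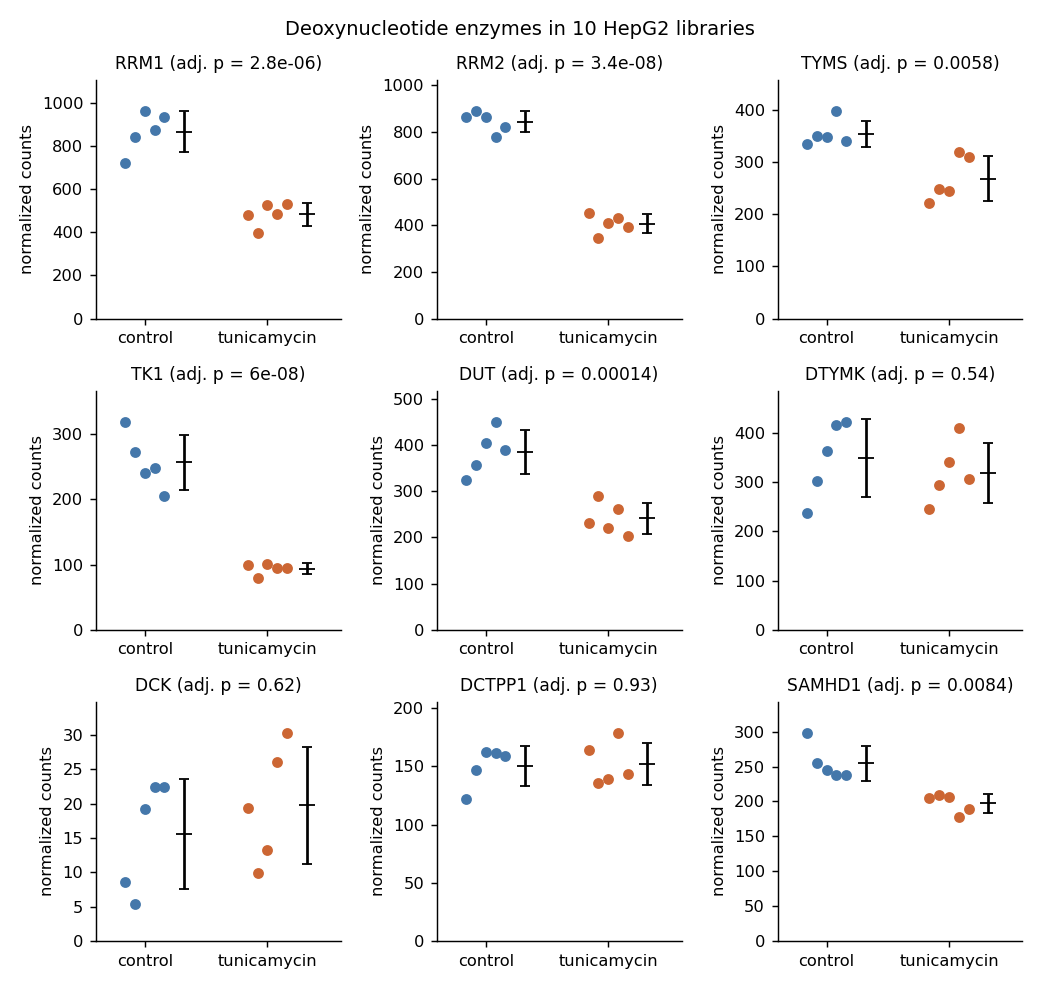
Normalized counts (y axis, from 0) of the 9 genes in the 5 control libraries (blue) and the 5 tunicamycin libraries (orange), replicates 1 to 5 from left to right, with mean and SD in black and the adjusted p of edgeR's test above each panel. RRM1, RRM2, TYMS, TK1, DUT and SAMHD1 show no overlap between conditions, whereas DTYMK, DCK and DCTPP1 overlap.

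Both subunits of ribonucleotide reductase fell. RRM2, the small subunit that carries the catalytic radical, had 864, 891, 866, 779 and 823 normalized counts in control replicates 1 to 5 and 451, 344, 409, 433 and 393 with tunicamycin. The highest treated library thus stood well below the lowest control, and the means were 845 ± 43.8 and 406 ± 41.0 (SD, n = 5 each). The log2 fold change was -1.06 (standard error 0.09, adjusted p = 3.38e-08 from edgeR), so the transcript fell by 51.9%. RRM1, the large subunit that binds the substrate, had 719, 839, 962, 875 and 934 normalized counts in control cells and 481, 395, 527, 482 and 529 with tunicamycin. Control replicate 1 was the lowest control library for RRM1 and still exceeded all treated libraries. Its log2 fold change was -0.85 (standard error 0.10, adjusted p = 2.83e-06 from edgeR). RRM2 lies on chromosome 2 of GRCh38 from 10120698 to 10211725 and RRM1 on chromosome 11 from 4094707 to 4138932, both on the plus strand. No exon of another gene overlaps RRM2, and the antisense gene that overlaps RRM1 had 0 counts.

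RRM2B, the other small subunit, which p53 induces and which serves cells outside S phase, was not called in either direction. It had 49.1, 46.4, 45.5, 51.1 and 29.5 normalized counts in control cells and 45.6, 61.5, 61.4, 63.2 and 56.5 with tunicamycin. Its change of 0.37 on the log2 scale (standard error 0.18, adjusted p = 0.114 from edgeR) did not pass the test, although 4 of 5 pairs were higher. With replicate 1 of both conditions left out, an alternative chosen after seeing the data, it was called higher, at 0.50 (adjusted p = 0.0484 from edgeR). No other fit called it, and without control replicate 5 its change was 0.26 (adjusted p = 0.257 from edgeR). The balance of the small subunits was tested directly as the log2 ratio of RRM2 to RRM2B counts within each library, in which library size cancels. This ratio was 4.26 ± 0.32 in control and 2.81 ± 0.30 in tunicamycin libraries (SD, n = 5 each), a difference of -1.46 without overlap (exact permutation test, two-sided p = 0.00794, adjusted p = 0.0132 over 5 ratios). The value 0.00794 is the smallest that 5 against 5 libraries allow. By contrast, the ratio of RRM2 to RRM1 was -0.03 ± 0.20 and -0.25 ± 0.14, a difference of -0.22 with a standard error of 0.11 that did not pass (exact permutation test, p = 0.103, adjusted p = 0.129). The exact permutation tests of the ratios did not use the replicate pairs, and a test within pairs is given further below.

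The salvage enzyme of thymidine had the largest log2 fold change of the 9 in either direction. TK1 had 318, 272, 240, 247 and 205 normalized counts in control cells and 98.8, 79.4, 100.1, 94.8 and 94.8 with tunicamycin. The treated libraries were close to each other, with 93.6 ± 8.29 against 257 ± 42.0 in control (SD, n = 5 each). The log2 fold change was -1.46 (standard error 0.13, adjusted p = 6e-08 from edgeR), and TK1 was lower in 5 of 5 pairs, at log2 ratios from -1.77 to -1.11. TK1 lies on chromosome 17 from 78174091 to 78187233 on the minus strand, and no exon of another gene overlaps it. Its mitochondrial counterpart TK2 had few counts, at 24.8 ± 6.85 normalized counts in control and 27.8 ± 8.12 in tunicamycin cells, and its log2 fold change was 0.16 (standard error 0.26). The ratio of TK1 to TK2 within libraries moved from 3.38 ± 0.46 to 1.77 ± 0.52, without overlap (exact permutation test, p = 0.00794, adjusted p = 0.0132). After thinning all libraries to the smallest total, this difference was -1.25 with an adjusted p of 0.0529 in the exact test.

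TYMS, which makes dTMP de novo, fell as well. It had 335, 350, 348, 398 and 341 normalized counts in control cells and 221, 248, 244, 319 and 309 with tunicamycin. The nearest libraries of the conditions, 335 in control and 319 in treated cells, almost touched. The log2 fold change was -0.41 (standard error 0.11, adjusted p = 0.00575 from edgeR), with log2 ratios from -0.60 to -0.14 within pairs. TYMS lies on chromosome 18 from 657653 to 673578 on the plus strand. The gene ENOSF1, on the opposite strand, overlaps the last 500 bases of its transcript, where 3′ libraries are read. If counting did not use the strand, reads of both genes cannot be told apart there. ENOSF1 itself had 140 ± 9.28 normalized counts in control and 132 ± 16.7 in tunicamycin cells (adjusted p = 0.584 from edgeR). The antisense transcript TYMSOS, listed as C18orf56, overlaps TYMS exons elsewhere and fell by 1.36 on the log2 scale (standard error 0.13).

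For the ratios of RRM2 to RRM2B and of TK1 to TK2, the exact sign-flip test within replicate pairs gave p = 0.0625, the smallest that 5 pairs allow, so that this test could not pass.

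**Figure D2:**
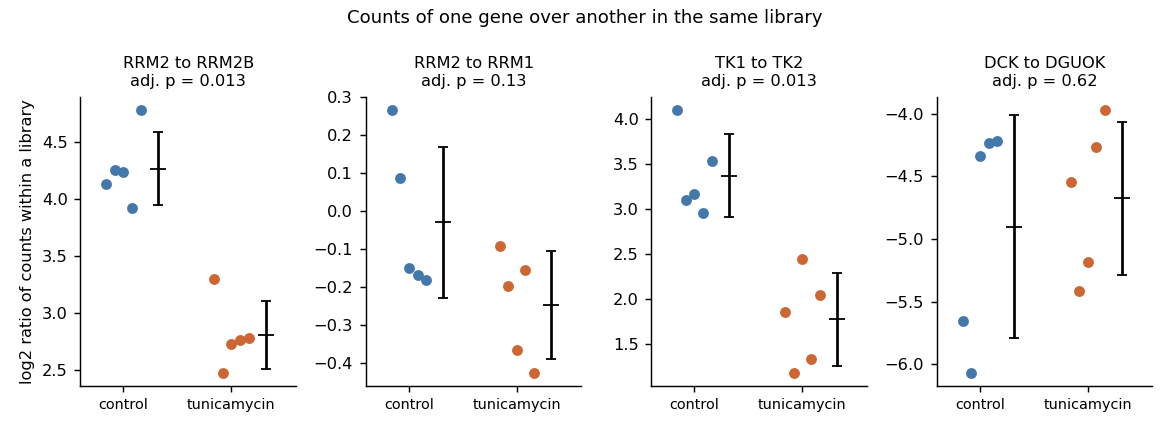
Log2 ratio of the counts of a pair of genes within each library (y axis, own scale per panel, pseudocount 0.5) for control (blue) and tunicamycin (orange), replicates 1 to 5 from left to right, with mean and SD in black. RRM2 to RRM2B and TK1 to TK2 lie lower with tunicamycin without overlap, whereas RRM2 to RRM1 and DCK to DGUOK overlap.

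DUT, which hydrolyses dUTP and so keeps uracil out of DNA, also fell. It had 324, 357, 404, 450 and 389 normalized counts in control cells and 231, 289, 220.1, 262 and 204 with tunicamycin. Tunicamycin replicate 2 and control replicate 1 were the nearest, at 289 and 324. The log2 fold change was -0.67 (standard error 0.11, adjusted p = 0.000138 from edgeR). Its gene lies on chromosome 15 from 48331011 to 48343373, and the antisense gene that overlaps it had at most 1 count per library.

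DTYMK, which phosphorylates the dTMP that TYMS and TK1 make, was not called. It had 237, 301, 364, 417 and 422 normalized counts in control cells and 245, 294, 340.1, 409 and 307 with tunicamycin, and replicate 1 was the lowest in both conditions. The log2 fold change was -0.13, with a 95% interval from -0.45 to 0.19 (adjusted p = 0.544 from edgeR). Within pairs 1 to 5 the log2 ratios were 0.05, -0.04, -0.10, -0.03 and -0.46, so that 4 pairs lay close to 0 and pair 5 below. The spread among control libraries, with an SD of 79.0, exceeded the difference between the means, 348 and 319.

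The 2 enzymes that break triphosphates down differed in their calls. SAMHD1, the triphosphohydrolase known to limit dNTPs outside S phase, had 298, 255, 245, 237 and 238 normalized counts in control cells and 204, 209, 206, 177 and 189.7 with tunicamycin. All treated libraries were below the controls, and the log2 fold change was -0.36 (standard error 0.10, adjusted p = 0.00841 from edgeR). DCTPP1, which removes dCTP and modified dCTP, had 122, 147, 163, 161 and 159 normalized counts in control cells and 164, 136, 139, 179 and 143 with tunicamycin. These values interleave, and the log2 fold change of 0.02 had a 95% interval from -0.23 to 0.27 (adjusted p = 0.928 from edgeR). Its sign turned under several settings, among them library size as the only scaling (-0.07), so no direction is given. A change in SAMHD1 and none called in DCTPP1 does not show that they differ, which was not tested. Genes on the opposite strand overlap both, TLDC2 in SAMHD1 and ZNF771 in DCTPP1, outside the last 500 bases of the transcripts.

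DCK, which starts the salvage of deoxycytidine, had between 6 and 25 counts per library. Its normalized counts were 8.61, 5.35, 19.2, 22.4 and 22.4 in control cells and 19.4, 9.92, 13.2, 26.1 and 30.3 with tunicamycin. The conditions overlapped widely, and the 95% interval of the log2 fold change, from -0.53 to 1.08 around 0.28, reaches a fold of 2.11 at its upper end. These counts thus do not exclude a change in DCK within this interval. MOB1B, on the same strand, overlaps DCK outside the last 500 bases, with 9 to 49 counts. It rose from 13.3 ± 3.52 to 42.4 ± 20.3 normalized counts (log2 fold change 1.59, standard error 0.31, adjusted p = 0.00052 from edgeR), without overlap between conditions. DGUOK, the mitochondrial deoxyguanosine kinase, had 419 ± 26.8 and 481 ± 27.6 normalized counts and missed the threshold (log2 fold change 0.20, standard error 0.08, adjusted p = 0.0737 from edgeR). Without control replicate 1 it was called higher, at 0.23 (adjusted p = 0.0396). The ratio of DCK to DGUOK did not pass (difference 0.23, exact permutation test, p = 0.619).

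The other genes of deoxynucleotide supply were called in both directions. Of 20 listed genes, 18 were tested, and 3 were lower and 6 higher, with a median log2 fold change of 0.10. Over all genes tested 16.6% were lower and 17.6% higher, so that the share of lower genes was near the background. The folate enzyme MTHFD1 (-0.71) and the mitochondrial nucleoside diphosphate kinase NME4 (-0.61) were among those that fell. Those that rose included the electron donors of ribonucleotide reductase. TXN, thioredoxin, had 255, 215, 251, 334 and 256 normalized counts in control cells and 363, 888, 906, 1286 and 1211 with tunicamycin, and the treated replicate 1 stood apart from the others. Its log2 fold change was 1.82 (standard error 0.23, adjusted p = 5.41e-06 from edgeR). GLRX, glutaredoxin, rose from 160 ± 36.9 to 507 ± 71.2 normalized counts (log2 fold change 1.66, standard error 0.14), and TXNRD1, which recycles thioredoxin, from 168 ± 26.6 to 320.2 ± 19.2 (0.93, standard error 0.11). RRM1 and RRM2 were lower, and TXN, GLRX and TXNRD1 higher, in 5 of 5 pairs each. A link between these changes was not tested.

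A kinase and a deaminase upstream of the triphosphates rose too. CMPK1, the UMP and CMP kinase, went from 119.7 ± 17.7 to 230.0 ± 37.0 normalized counts (log2 fold change 0.93, standard error 0.13). DCTD, which deaminates dCMP to dUMP, had a log2 fold change of 0.53. SHMT1, GUK1, NME1, NME3, NME6, AK1, TK2, DGUOK and RRM2B were not called. CMPK2 was too low to be tested. NME2 stood at 0 counts throughout, a value compatible with up to 3 per library, beside 5 to 35 counts for the NME1-NME2 read-through gene, so the counts of NME1 and NME2, which are near-identical neighbours, are uncertain.

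**Figure D3:**
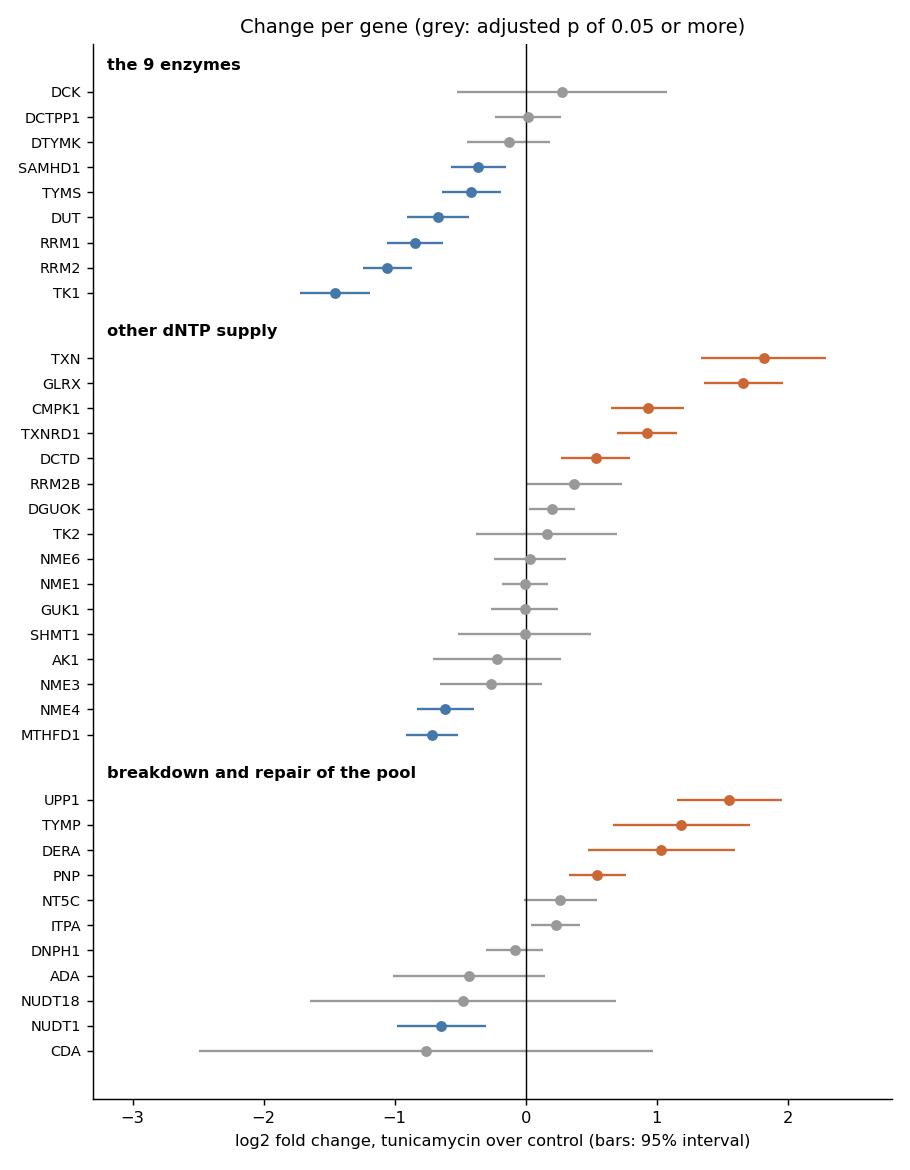
Log2 fold change of tunicamycin over control (x axis) with 95% interval for genes of 3 groups, with genes called lower in blue, called higher in orange and not called in grey. TK1, RRM2, RRM1, DUT, TYMS and SAMHD1 lie left of 0, whereas TXN, GLRX, UPP1, TYMP and DERA lie beyond 1 on the right.

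Among enzymes that break nucleosides and deoxyribose down, more were called higher than lower. Of 12 tested genes of breakdown and repair of the nucleotide pool, 5 rose and 1 fell, with a median log2 fold change of 0.25. Among all genes tested 17.6% were higher and 16.6% lower, and the list was not tested against these shares. UPP1, uridine phosphorylase, had 45.6, 37.5, 36.7, 41.2 and 50.8 normalized counts in control cells and 126, 137, 169, 70.1 and 113 with tunicamycin (log2 fold change 1.56, standard error 0.19, adjusted p = 4.55e-06 from edgeR). TYMP, which cleaves thymidine and so opposes TK1, rose from 16.2 ± 5.11 to 37.0 ± 6.03 (1.19, standard error 0.25). PNP, the purine nucleoside phosphorylase, rose from 121 ± 7.08 to 176 ± 10.6 (0.55, standard error 0.10). DERA, which splits the released deoxyribose 5-phosphate, had a log2 fold change of 1.04 (standard error 0.27), but its control values ranged from 26.7 to 103, and those of treated cells from 81.9 to 184. Within pairs DERA was higher in 5 of 5. With the replicate number added to the fit, its log2 fold change was 1.11 (adjusted p = 3.95e-06 from edgeR). NUDT1, which clears oxidised purine triphosphates, fell (-0.64, standard error 0.16).

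Genes for the synthesis of ribonucleotides, from which deoxynucleotides are made, were called in both directions. For comparison, 16.6% of all genes tested were lower and 17.6% higher, and neither list below was tested against these shares. Of the 8 pyrimidine genes, 3 were lower and 3 higher, with a median log2 fold change of -0.16. UCKL1 had the largest change, 1.36 (standard error 0.35), with control values from 23.2 to 219.5 normalized counts that overlap the treated range of 196 to 488. Within pairs UCKL1 was higher in 5 of 5. With the replicate number added to the fit, its log2 fold change was 1.53 (adjusted p = 2.36e-07 from edgeR). UCK2, a uridine-cytidine kinase, rose (0.57) and its relative UCK1 fell (-0.62). CTPS2 (-0.53) and UMPS (-0.37) were the other genes called lower. DHODH, the mitochondrial step, was called higher (0.61, adjusted p = 0.0218 from edgeR), but lost the call without tunicamycin replicate 3 (adjusted p = 0.0734), with library size only (0.05003) and after thinning (0.0859). CAD, which opens the pathway, was not called (-0.13). Of the 15 purine genes, 4 were higher and 1 lower, with a median of 0.24. PAICS, a bifunctional enzyme, rose from 462 ± 83.8 to 662 ± 77.1 normalized counts (0.51), and GART (0.41) and ADSL (0.38) rose as well. GMPS, the GMP synthase, was called lower (-0.39, adjusted p = 0.0467 from edgeR). It lost this call in 7 fits with 1 library left out (without control replicate 1, 2, 3 or 4 or tunicamycin replicate 3, 4 or 5), at adjusted p-values up to 0.123, and after thinning (-0.37, adjusted p = 0.0565).

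Genes of the machinery that uses deoxynucleotides fell as well. All 6 subunits of the MCM helicase were lower, with a median log2 fold change of -1.22, and of 18 genes of replicative polymerases and clamp loading 12 were lower and 0 higher, with a median of -0.92. The share called lower over all genes tested was 16.6%, and the share called higher was 17.6%. The 9 deoxynucleotide genes, with 6 lower and a median of -0.41, ranged from TK1 at -1.46, within the span of the helicase subunits (-1.97 to -0.88), to DCK at 0.28. These lists were not tested against each other. PCNA, the sliding clamp, fell by 0.80 on the log2 scale. Markers of cycling cells moved in the same direction: 5 of 6 were lower, namely MKI67 (-1.46), E2F1 (-1.26), TOP2A (-0.92), CCNA2 (-0.50) and CDK1 (-0.47). The sum of the 6 was 8797 to 10381 normalized counts in control and 4072 to 5695 in tunicamycin libraries, and the part of the share of cycling cells in the result was not tested. CCNE2, the remaining marker, was not called. CDKN1A, the CDK inhibitor p21, which is not among these 6, fell too (-0.48, standard error 0.12).

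The genes whose log2 ratios over the 5 replicate pairs lay nearest to the median profile of the 9 genes were ATP6V0E1, CETN3, SLC16A3, RP5-935K16.1 and APEH. Their root mean square differences from it were 0.0579 to 0.0686 on the log2 scale, out of 9699 candidates with at least 20 normalized counts on average.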

How the data were processed

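HepG2 libraries (5 control, 5 tunicamycin) were made from total RNA with the QuantSeq 3′ FWD method. The authors processed the reads with the nf-core RNA-Seq pipeline at default settings on hg19 with Ensembl transcript definitions, and deposited raw counts per gene; the aligner, the counting program and the strand setting are not given in the sources used here. Genes were filtered with filterByExpr (minimum count 2, minimum total 10), scaled by TMM and tested with edgeR 4.0.16 (R 4.3.3, quasi-likelihood test, condition as the only term, Benjamini-Hochberg adjustment over all 12733 genes, threshold 0.05). The standard error is the absolute log2 fold change divided by the square root of F. Log2 ratios used a pseudocount of 0.5.

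The 9 genes and the gene lists were chosen with earlier results of these data known. The genes named were the 9, their counterparts in the 5 ratios, up to 4 called genes per pathway list with the largest changes, the markers, the genes nearest in pair profile, and genes with overlapping exons, except that some genes and 1 of the 5 ratios are not reported here, though they stay in the counts, medians and adjustments; the other genes of the lists were named after their values were seen.

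Replicate numbers were taken to pair the libraries, since the 5 experiments were done on separate days. The sample titles give only a replicate number and do not state that equal numbers share a day. Over 9707 genes averaging 20 or more normalized counts, the deviations of paired libraries from their group means correlated at 0.36, 0.0197, 0.0764, 0.162 and 0.137 for replicates 1 to 5. Alternatives were DESeq2 1.42.0, its size factors in edgeR, library size only, no filter, the default filter, the replicate block, thinning to the smallest library and leaving out each library. The script was tested on simulated data. Depth, 2234682 counts in the shallowest library, limits genes with few counts. Gene positions come from GENCODE on GRCh38, matched by Ensembl identifier, since the build of the counts, hg19, was not used here. Promoter windows come from RefSeq.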

Additional observations from a re-analysis of the deposited data

Results flagged for a closer look

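In groups of 5 libraries, a value was noted where its gap to the nearest other exceeded 0.71 of the group's range (Dixon's test at 95%). Of 56 groups tested, 4 met this, where chance gives about 2.8. In normalized counts, TYMS had 398 in control replicate 4, where the other 4 had 335 to 350. TK1 had 79.4 in tunicamycin replicate 2 (others 94.8 to 100.1), RRM2B had 29.5 in control replicate 5 (others 45.5 to 51.1), and GART had 199.7 in control replicate 1 (others 287 to 319). The fits without the library concerned left TYMS, TK1 and GART on their side of the threshold, and RRM2B was not called in the fit without control replicate 5.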

How the results depend on the processing

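The 9 genes had 6 called lower and 0 higher in each of the 7 alternatives and the 10 fits without 1 library, and their median log2 fold change was -0.48 to -0.38 without 1 library and -0.50 to -0.38 otherwise. The other supply genes had 3 lower and 6 higher, with 7 higher without control replicate 1 and 8 without replicate 1 of both conditions, an alternative chosen after seeing the data. DCTPP1 turned to -0.0669 with library size only, -0.0185 after thinning and -0.0762 without replicate 1 of both conditions. Without 1 library it ranged from -0.0503 (control replicate 1) to 0.0645 (tunicamycin replicate 2), and was also below 0 without tunicamycin replicates 1 (-0.0154) and 4 (-0.0388). TK2 turned to -0.11 after thinning. Among the values for single genes under all alternatives, 464 kept direction and call, 7 reversed, 12 lost and 3 gained the call.

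With the replicate block, no call among the 9 genes changed. For the ratios, the sign-flip test within pairs left the differences at -1.46 (RRM2 to RRM2B) and -1.60 (TK1 to TK2), each with an adjusted p of 0.104 in this exact test, whose unadjusted p cannot go below 0.0625 with 5 pairs. After thinning, which leaves fewer counts, TK1 to TK2 was -1.25. Without 1 library, RRM2 to RRM2B ranged from -1.58 to -1.33 (-1.61 without replicate 1 of both conditions), RRM2 to RRM1 from -0.26 to -0.14, TK1 to TK2 from -1.77 to -1.42 and DCK to DGUOK from -0.0652 (without control replicate 2) to 0.41. Depth limits genes with few counts, such as DCK and TK2. The causes were not tested.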
